A study of Drosophila melanogaster with 18 samples.

Results

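The cytochrome P450 family was followed in RNA from pupal wings of Drosophila melanogaster. Its members were taken by name, as genes whose FlyBase symbol starts with Cyp and a digit. The 2 cyclophilins with such symbols and Cyp18a1 were left out, and a gene had to have 30 or more counts over the 18 libraries. Of 84 P450 symbols, 63 genes met this, 20 had fewer counts and Cyp6a21 was not analysed here. Just inside the limit were Cyp12a5 with 30 counts, Cyp4aa1 with 35 and Cyp313b1 with 37, and just outside it were Cyp12e1 and Cyp6a14 with 27 each. The wings came from 3 genotypes, each dissected at 44 h and 24 h after puparium formation, with at least 40 wings in a sample. E93RNAi+brRNAi wings carried the driver rn-Gal4 with both UAS-brRNAi and UAS-E93RNAi, E93RNAi wings carried rn-Gal4 with UAS-E93RNAi, and control wings carried rn-Gal4 alone. No library analysed here carried UAS-brRNAi without UAS-E93RNAi. All groups share the driver, which follows the gene rotund (rn), so a dissected wing can also hold cells without the RNAi. Each of the 6 groups had 3 libraries of poly(A) RNA. Nothing in the labels says that these came from separate crosses, so p-values measure the spread between libraries, which may be technical.

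P450 enzymes are haem proteins that use molecular oxygen and electrons from NADPH to oxidise small, mostly lipophilic molecules. Most insect P450s sit in the endoplasmic reticulum and take their electrons from the reductase Cpr, and those of the mitochondrial clan take them from a ferredoxin. Insect families are sorted into the CYP2, CYP3, CYP4 and mitochondrial clans. The CYP3 clan holds many enzymes that act on plant toxins and insecticides, the CYP4 clan holds enzymes that act on fatty acids and hydrocarbons, and the CYP2 and mitochondrial clans hold enzymes of hormone and cuticle biology. The pupal wing is an epithelium that secretes the adult cuticle during the interval sampled here. Its timing follows ecdysone, and E93 (gene Eip93F) and Broad (gene br) are transcription factors of the ecdysone cascade. By the labels, the groups ask which transcripts change with E93 RNAi, with and without br RNAi.

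Library totals were between 17627937 and 22940404 counts, so a single count was worth 0.0412 to 0.0617 CPM (counts scaled to library size by the TMM method). Levels are given in this unit, and 9672 genes were tested with edgeR, among them 58 of the 63 members. The wing genes vg, sd, nub, bs, rn, dy and m were present in every group, with a summed level of at least 1529 CPM in each library. The library labels were checked on the RNAi target. Eip93F was at 922, 868 and 811 CPM in E93RNAi+brRNAi, 1173, 1182 and 1113 CPM in E93RNAi and 1274, 1243 and 1337 CPM in control at 44 h. Eip93F at 24 h was at 2359, 2414 and 2334 CPM in E93RNAi+brRNAi, 2043, 1886 and 2270 CPM in E93RNAi and 2018, 2115 and 2098 CPM in control, so its transcript did not separate the libraries labelled E93RNAi from control at 24 h. In the libraries labelled E93RNAi+brRNAi it was below control at 44 h (-0.57 ± 0.06, adjusted p = 1.53e-07) but above control without overlap at 24 h (0.19 ± 0.06, adjusted p = 0.0214), which goes against the label. For E93RNAi over control the log2 fold change was -0.15 ± 0.06 at 44 h (adjusted p = 0.0522) and -0.01 ± 0.06 at 24 h (adjusted p = 0.935). All groups are therefore called by their labels, and every direction by genotype below rests on those labels. The libraries labelled E93RNAi also differed in Dcr-2, a component of the RNAi machinery. At 24 h Dcr-2 was at 5549 ± 425 CPM in E93RNAi, 141 ± 10.7 CPM in E93RNAi+brRNAi and 237 ± 22.1 CPM in control (SD, n = 3 each). At 44 h Dcr-2 and rn were also higher in E93RNAi than in control. Eip93F, Dcr-2 and rn together summed there to 3215 to 3889 CPM in E93RNAi, 922.4 to 1047 CPM in E93RNAi+brRNAi and 1359 to 1446 CPM in control. The labels used here name no Dcr-2 transgene, and its part in the results was not tested. The br transcript was not analysed here.

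The family was a small share of the RNA and its total moved with time and genotype. Summed over the 63 members, it was at 1083 ± 61.9 CPM in E93RNAi+brRNAi, 632.8 ± 35.7 CPM in E93RNAi and 695.2 ± 13.3 CPM in control at 44 h. At 24 h the sums were 396.6 ± 6.55 CPM in E93RNAi+brRNAi, 305.5 ± 5.32 CPM in E93RNAi and 461.2 ± 10.8 CPM in control (SD, n = 3 each). In each genotype the 44 h libraries were all above the 24 h libraries. Few genes made up most of each sum, since in every library the 6 highest members held between 69.4% and 79.1% of it. On the deposited scale per kilobase (cRPKM, mean over all libraries), Cyp301a1 was highest at 54.5, followed by Cyp4p2 at 36.0, Cyp9c1 at 29.6, Cyp4e2 at 27.5, Cyp4s3 at 23.5 and Cyp4p1 at 16.8. Many members were near the detection limit, and 41, 32 and 39 of the 63 reached 1 CPM on average in E93RNAi+brRNAi, E93RNAi and control at 44 h, against 33, 31 and 29 at 24 h. The heat map of all members shows that most of the family stayed low and that a few genes switched between the times.

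**Figure D1:**
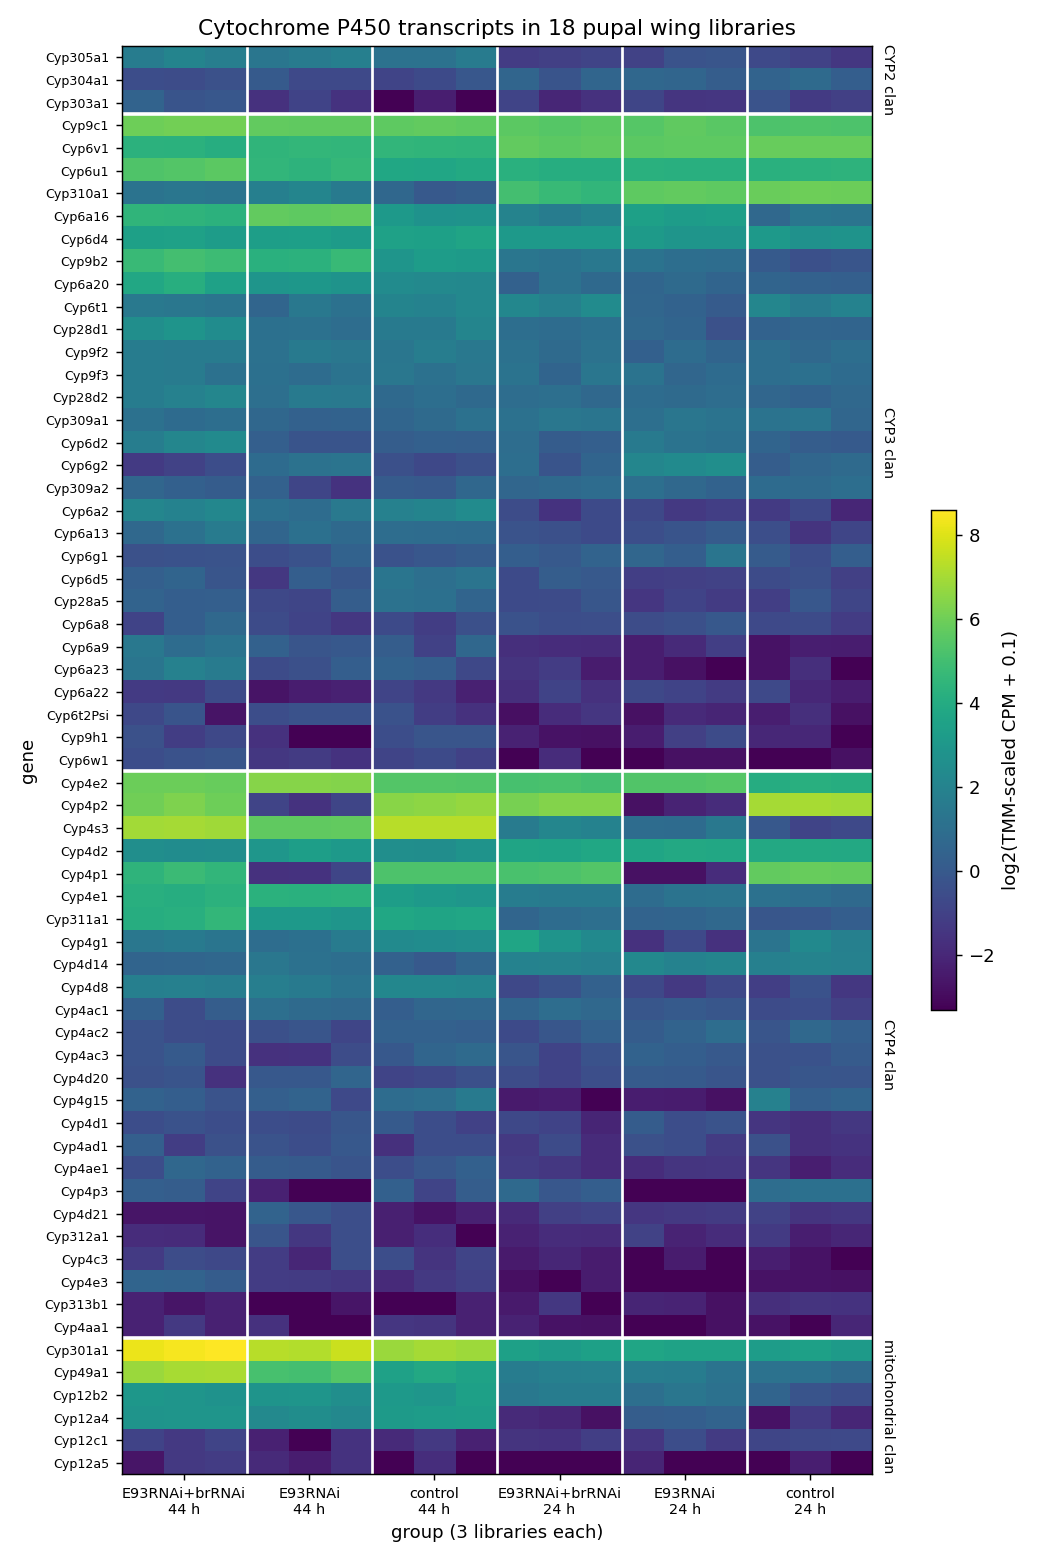
Level of the 63 P450 members (lines, sorted by clan and mean level) in the 18 libraries (columns, 3 per group), as log2 of CPM plus 0.1. Cyp301a1, Cyp49a1 and Cyp4s3 are bright in the 44 h columns, Cyp310a1 in the 24 h columns, and Cyp4p2 and Cyp4p1 are dark in both E93RNAi groups.

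Between 24 h and 44 h more members rose than fell in each genotype. In E93RNAi+brRNAi wings 32 of 58 tested members were higher at 44 h than at 24 h and 12 were lower, against 37.8% and 38% of all genes tested. In E93RNAi wings 35 were higher and 14 lower, against 38.1% and 36.4% of all genes. In control wings 32 were higher and 13 lower, against 37.1% and 38.1% of all genes. The median member had a log2 fold change of 0.95 in E93RNAi+brRNAi, 0.95 in E93RNAi and 0.70 in control, where the median of all genes was between -0.01 and 0.02. The comparisons of times share no library, and 25 members, or 43.1% of those tested, were higher at 44 h in all 3 genotypes, against 26% of all genes. Lower in all 3 genotypes were 6 members, or 10.3%, against 27.1% of all genes. In bulk wings, fewer cells of a type and less RNA per cell cannot be told apart. Markers of other tissues moved with time as well, and their part in the P450 changes was not tested. The 11 matched muscle markers summed to between 721 and 887.7 CPM in E93RNAi+brRNAi at 44 h, against 149.9 to 178.4 CPM at 24 h, with 10 of the 11 higher and 0 lower. In E93RNAi they summed to between 440.8 and 551.4 CPM at 44 h, against 282.2 to 313.3 CPM at 24 h, with 3 higher and 6 lower. In control they summed to between 803.2 and 934.5 CPM at 44 h, against 184.8 to 205.6 CPM at 24 h, with 9 higher and 1 lower. The 8 hemocyte markers summed to between 214.3 and 225.6 CPM in E93RNAi+brRNAi at 44 h, against 73.7 to 84.08 CPM at 24 h, to between 183.2 and 186.8 CPM in E93RNAi, against 78.54 to 85.79 CPM, and to between 209.4 and 230.8 CPM in control, against 59.96 to 66.34 CPM. The 12 fat body markers summed to between 478.1 and 533.6 CPM in E93RNAi+brRNAi at 44 h, against 545.3 to 576.1 CPM at 24 h, to between 382.7 and 422.4 CPM in E93RNAi, against 714.8 to 739.2 CPM, and to between 419.4 and 547.5 CPM in control, against 590.3 to 700.5 CPM. Of 7 tested hemocyte markers, 5, 6 and 6 were higher and 1, 1 and 0 lower at 44 h in E93RNAi+brRNAi, E93RNAi and control, and of 10 tested fat body markers, 1, 2 and 2 were higher and 3, 7 and 4 lower.

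In the mitochondrial clan, 4 of the 5 tested members were higher at 44 h than at 24 h in each genotype. Of all genes, 37.8%, 38.1% and 37.1% were higher in E93RNAi+brRNAi, E93RNAi and control. Cyp301a1, which is needed for adult cuticle formation, was at 307.5, 351 and 389.7 CPM in E93RNAi+brRNAi, 161, 148 and 198 CPM in E93RNAi and 113, 126 and 115 CPM in control at 44 h. Levels of Cyp301a1 at 24 h were 10.8, 9.14 and 10.9 CPM in E93RNAi+brRNAi, 12.7, 11.8 and 11.5 CPM in E93RNAi and 9.55, 11.04 and 9.01 CPM in control. The 44 h libraries did not overlap the 24 h libraries in any genotype, nor did the genotypes overlap at 44 h. The log2 fold change of 44 h over 24 h was 5.08 ± 0.12 in E93RNAi+brRNAi, 3.81 ± 0.11 in E93RNAi and 3.58 ± 0.12 in control (adjusted p = 9.02e-17 in control). The genotypes differed at 44 h, where Cyp301a1 was higher in E93RNAi+brRNAi than in control (1.57 ± 0.09, adjusted p = 1.4e-11) and than in E93RNAi (1.05 ± 0.09). It was also higher in E93RNAi than in control (0.52 ± 0.09, adjusted p = 0.000118). At 24 h the difference between E93RNAi and control missed the threshold (0.29 ± 0.14, interval -0.001 to 0.57).

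Cyp49a1, another gene of the mitochondrial clan, gave the same order of genotypes with wider steps. At 44 h it was at 113, 132 and 135 CPM in E93RNAi+brRNAi, 35.0, 33.0 and 43.6 CPM in E93RNAi and 11.1, 14.7 and 11.6 CPM in control. Cyp49a1 at 24 h was at 3.09, 3.51 and 3.71 CPM in E93RNAi+brRNAi, 3.20, 3.08 and 2.25 CPM in E93RNAi and 2.17, 2.07 and 1.64 CPM in control. The lowest E93RNAi+brRNAi library at 44 h was thus above the highest E93RNAi library, and that was true again of E93RNAi over control. The rise between the times was 5.21 ± 0.13 on the log2 scale in E93RNAi+brRNAi, 3.70 ± 0.14 in E93RNAi and 2.68 ± 0.18 in control. At 44 h the log2 fold change was 3.34 ± 0.11 for E93RNAi+brRNAi over control (adjusted p = 1.18e-15) and 1.57 ± 0.12 for E93RNAi over control (adjusted p = 5.49e-10). Cyp49a1 overlaps Galphao on the opposite strand, and Cyp301a1 overlaps Ak6 on the opposite strand. The library kit keeps the strand, but whether the counting used it is not given in the sources used here. Galphao was at 77.7, 102 and 86.9 CPM on average in E93RNAi+brRNAi, E93RNAi and control at 44 h, and Ak6 at 5.36, 6.44 and 7.19 CPM.

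Cyp12a4 and Cyp12b2 rose in all 3 genotypes. Cyp12a4, whose overexpression gives resistance to the insecticide lufenuron, was at 7.09, 7.45 and 7.46 CPM in E93RNAi+brRNAi, 4.76, 5.62 and 4.61 CPM in E93RNAi and 9.06, 9.42 and 10.0 CPM in control at 44 h. The 24 h libraries of Cyp12a4 had 0.165, 0.142 and 0.0447 CPM in E93RNAi+brRNAi, 1.05, 1.07 and 1.29 CPM in E93RNAi and 0.0516, 0.302 and 0.141 CPM in control. At 44 h E93RNAi was below control (-0.92 ± 0.14 on the log2 scale, adjusted p = 1.41e-05), whereas at 24 h it was above control (2.73 ± 0.36, adjusted p = 4.26e-06), and these 2 groups did not overlap at either time. The rise between the times was 5.88 ± 0.27 in E93RNAi+brRNAi, 2.14 ± 0.18 in E93RNAi and 5.79 ± 0.25 in control. For E93RNAi+brRNAi and control these ± values are too small, given the few counts at 24 h. Cyp12b2 was at 7.89, 7.33 and 6.74 CPM in E93RNAi+brRNAi, 7.09, 7.30 and 5.76 CPM in E93RNAi and 8.29, 7.57 and 10.8 CPM in control at 44 h. Its 24 h libraries were at 2.64, 3.13 and 3.08 CPM in E93RNAi+brRNAi, 1.92, 2.44 and 2.07 CPM in E93RNAi and 1.34, 0.756 and 0.610 CPM in control. At 44 h E93RNAi+brRNAi overlapped with E93RNAi, and at 24 h both were above control (1.71 ± 0.24 in E93RNAi+brRNAi and 1.26 ± 0.26 in E93RNAi).

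**Figure D2:**
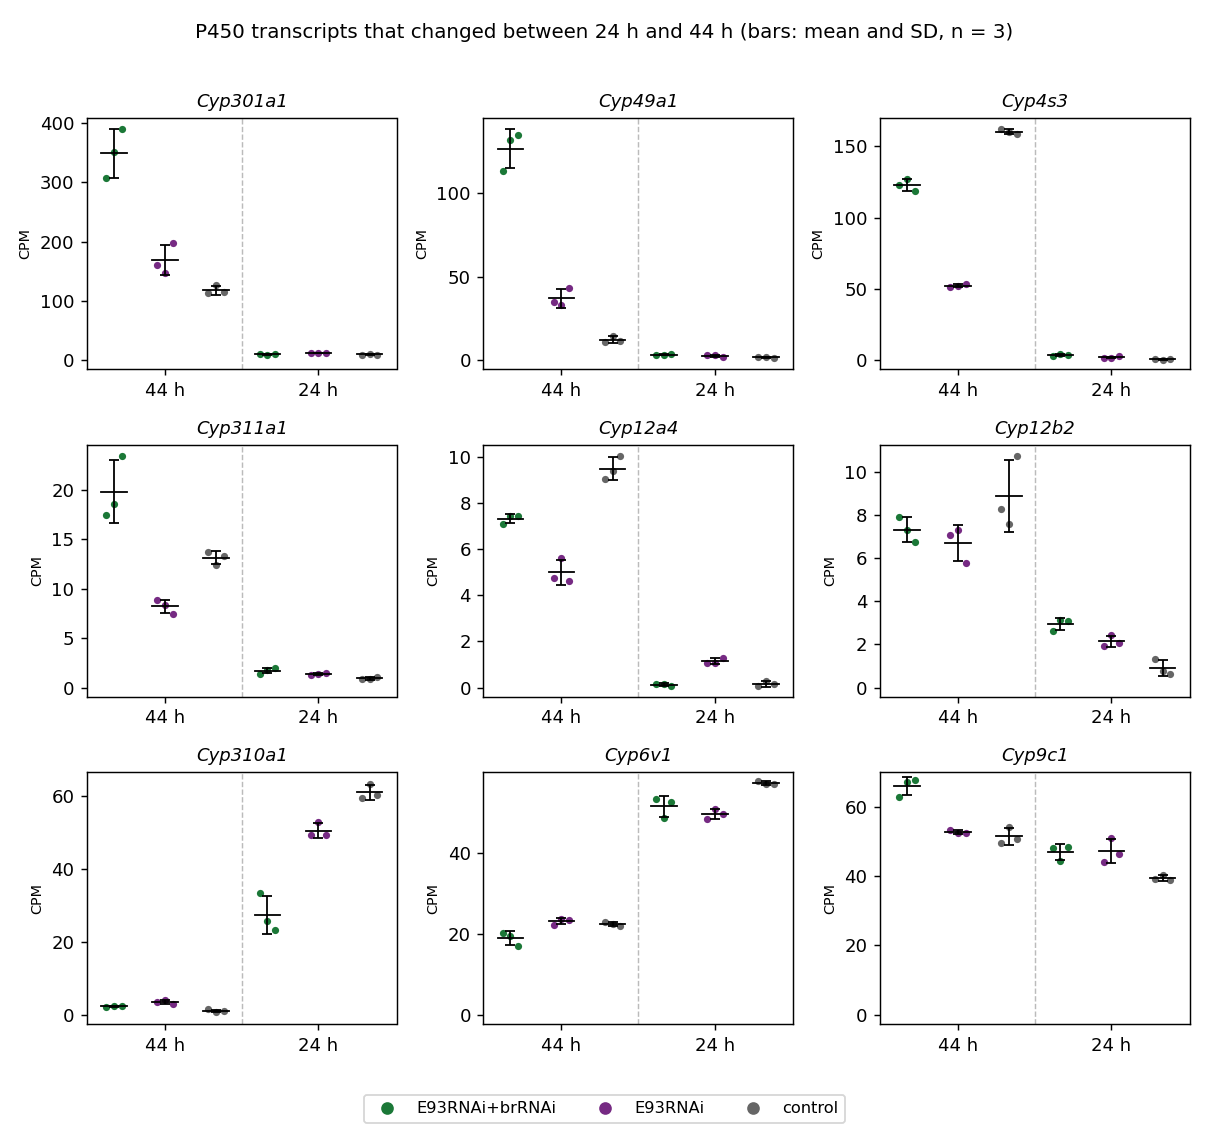
CPM of 9 P450 genes in each library (dots) with group mean and SD (black bars, n = 3), with 44 h on the left and 24 h on the right of each panel and colours for E93RNAi+brRNAi, E93RNAi and control. Cyp301a1, Cyp49a1, Cyp4s3, Cyp311a1, Cyp12a4 and Cyp12b2 are higher at 44 h in every genotype, Cyp310a1 and Cyp6v1 are lower, and Cyp9c1, between 38.8 and 67.6 CPM in all libraries, is higher at 44 h by at most 0.49 on the log2 scale.

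Of the 22 tested members of the CYP4 clan, 9 were higher and 7 lower at 44 h than at 24 h in E93RNAi+brRNAi, 14 were higher and 4 lower in E93RNAi, and 11 were higher and 6 lower in control. Of all genes, 37.8% were higher and 38% lower in E93RNAi+brRNAi, 38.1% and 36.4% in E93RNAi, and 37.1% and 38.1% in control. The CYP4 counts in E93RNAi+brRNAi were thus near the background. Cyp4s3 was at 123, 127 and 119 CPM in E93RNAi+brRNAi, 51.5, 52.2 and 53.5 CPM in E93RNAi and 162, 160.4 and 159 CPM in control at 44 h. Cyp4s3 at 24 h was at 3.01, 4.36 and 3.75 CPM in E93RNAi+brRNAi, 1.74, 1.71 and 2.67 CPM in E93RNAi and 0.878, 0.454 and 0.516 CPM in control. In control this was a log2 fold change of 8.02 ± 0.13 between the times (adjusted p = 1.09e-21), the largest of the 58 tested members, against 5.06 ± 0.10 in E93RNAi+brRNAi and 4.69 ± 0.11 in E93RNAi. At 44 h it was below control in E93RNAi+brRNAi (-0.38 ± 0.07, adjusted p = 7.54e-05) and in E93RNAi (-1.61 ± 0.07, adjusted p = 1.49e-13). At 24 h it was above control in E93RNAi+brRNAi (2.58 ± 0.22, adjusted p = 1.27e-08) and in E93RNAi (1.72 ± 0.25, adjusted p = 1.63e-05), and no genotypes overlapped at either time. Cyp4s3 overlaps Rab3-GEF on the opposite strand, which averaged between 3.38 and 4.69 CPM at 44 h.

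Cyp311a1, known from the larval midgut, where it acts in lipid metabolism, was at 17.4, 18.5 and 23.4 CPM in E93RNAi+brRNAi, 8.80, 8.33 and 7.43 CPM in E93RNAi and 13.7, 12.4 and 13.3 CPM in control at 44 h. Levels of Cyp311a1 at 24 h were 1.40, 1.75 and 1.97 CPM in E93RNAi+brRNAi, 1.28, 1.33 and 1.52 CPM in E93RNAi and 0.826, 0.857 and 1.08 CPM in control. The 44 h groups were separate and ran from E93RNAi (lowest) through control to E93RNAi+brRNAi. The log2 fold change at 44 h was 0.59 ± 0.11 for E93RNAi+brRNAi over control and -0.68 ± 0.12 for E93RNAi over control. Cyp4d8 rose by 2.08 ± 0.27 on the log2 scale in E93RNAi+brRNAi, 2.69 ± 0.30 in E93RNAi and 3.29 ± 0.29 in control. Cyp4e3 had no count in E93RNAi at 24 h and averaged 0.316 CPM there at 44 h, at least 7.06-fold higher (against 3 counts over the group), and it averaged 1.21 CPM in E93RNAi+brRNAi and 0.284 CPM in control at 44 h. Its 44 h level in E93RNAi+brRNAi was above control by 2.06 ± 0.37 (adjusted p = 0.000149). Members of the clan that fell with time in all 3 genotypes were Cyp4d2 and its neighbour on chromosome X, Cyp4d14. Cyp4ae1, on the other side of Cyp4d2, rose in all 3. Cyp4p1, Cyp4p2 and Cyp4d21 fell in 2 genotypes and rose in 1. Cyp4d2 averaged 5.64 CPM in E93RNAi+brRNAi, 8.77 CPM in E93RNAi and 6.15 CPM in control at 44 h, against 12.6, 13.9 and 14.8 CPM at 24 h in the same order. It was higher in E93RNAi than in control at 44 h (0.52 ± 0.12, adjusted p = 0.00116).

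In the CYP3 clan, the group best known for detoxification, 17 of 28 tested members were higher at 44 h and 4 lower in E93RNAi+brRNAi, 16 higher and 8 lower in E93RNAi, and 16 higher and 4 lower in control. The shares of all genes were 37.8% higher and 38% lower in E93RNAi+brRNAi, 38.1% and 36.4% in E93RNAi, and 37.1% and 38.1% in control. Cyp9b2 was at 26.6, 32.8 and 28.9 CPM in E93RNAi+brRNAi, 18.7, 20.5 and 26.1 CPM in E93RNAi and 7.31, 9.57 and 8.81 CPM in control at 44 h. Cyp9b2 at 24 h was at 2.43, 2.23 and 2.68 CPM in E93RNAi+brRNAi, 2.24, 1.88 and 1.84 CPM in E93RNAi and 0.929, 0.655 and 0.798 CPM in control. Both RNAi genotypes lay above control without overlap at both times, and the rise with time was 3.58 on the log2 scale in E93RNAi+brRNAi, 3.45 in E93RNAi and 3.42 in control. Cyp6a2, an inducible gene of insecticide metabolism, was at 4.38, 3.81 and 4.51 CPM in E93RNAi+brRNAi, 2.05, 1.78 and 2.71 CPM in E93RNAi and 3.62, 4.13 and 5.26 CPM in control at 44 h. Its 24 h means were 0.450 ± 0.186 CPM in E93RNAi+brRNAi, 0.390 ± 0.103 CPM in E93RNAi and 0.318 ± 0.182 CPM in control (SD, n = 3 each). All 44 h libraries of Cyp6a2 were above all 24 h libraries, with a log2 fold change of 3.76 ± 0.32 in control. Cyp6a2 overlaps Epac on the same strand, where reads could not be told apart by strand, and Epac averaged 79.9 CPM in control at 44 h and 21.9 CPM at 24 h.

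Near one another on chromosome 2R lie Cyp6a23, Cyp6a9 and Cyp6a20, the last known from studies of male aggression. Cyp6a20 was at 13.9, 18.02 and 11.4 CPM in E93RNAi+brRNAi, 7.25, 7.77 and 6.91 CPM in E93RNAi and 5.27, 4.73 and 4.60 CPM in control at 44 h. The 24 h libraries of Cyp6a20 had 1.20, 2.13 and 1.56 CPM in E93RNAi+brRNAi, 1.37, 1.62 and 1.33 CPM in E93RNAi and 1.34, 1.21 and 1.13 CPM in control. At 44 h it was higher in E93RNAi+brRNAi than in control (1.57 ± 0.16, adjusted p = 5.2e-08) and than in E93RNAi (0.98 ± 0.15), with no overlap. Cyp6a23 was at 2.40, 3.64 and 3.01 CPM in E93RNAi+brRNAi, 0.554, 0.655 and 1.09 CPM in E93RNAi and 1.26, 1.10 and 0.499 CPM in control at 44 h. Its group means at 24 h were 0.223 CPM in E93RNAi+brRNAi, 0.0447 CPM in E93RNAi and 0.0844 CPM in control. It was higher in E93RNAi+brRNAi than in control at 44 h (1.65 ± 0.35, adjusted p = 0.000598). Cyp6a9 averaged 2.20 CPM in E93RNAi+brRNAi, 0.959 CPM in E93RNAi and 0.979 CPM in control at 44 h, a log2 fold change of 1.18 ± 0.34 for E93RNAi+brRNAi over control. These neighbours are paralogs, and reads that match more than 1 of them may have been split between them.

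Falls with time in the CYP3 clan were led by Cyp310a1. At 44 h it was at 2.22, 2.48 and 2.34 CPM in E93RNAi+brRNAi, 3.43, 4.17 and 2.94 CPM in E93RNAi and 1.48, 0.897 and 1.05 CPM in control. Cyp310a1 at 24 h was at 33.3, 25.8 and 23.3 CPM in E93RNAi+brRNAi, 49.3, 52.9 and 49.4 CPM in E93RNAi and 59.5, 63.5 and 60.3 CPM in control. The log2 fold change of 44 h over 24 h was -3.55 ± 0.15 in E93RNAi+brRNAi, -3.83 ± 0.13 in E93RNAi and -5.74 ± 0.16 in control. At 44 h both RNAi genotypes stayed above control without overlap, by 1.04 ± 0.27 in E93RNAi+brRNAi and 1.64 ± 0.24 in E93RNAi, and at 24 h E93RNAi+brRNAi lay below control (-1.15 ± 0.09, adjusted p = 7.66e-09). Cyp310a1 overlaps MESR3 on the opposite strand, which averaged 197, 147 and 204 CPM in E93RNAi+brRNAi, E93RNAi and control at 44 h, against 39.5, 40.9 and 16.2 CPM at 24 h, and so moved the other way. Cyp6v1 was at 20.2, 19.5 and 17.0 CPM in E93RNAi+brRNAi, 22.2, 23.7 and 23.3 CPM in E93RNAi and 22.8, 22.3 and 21.8 CPM in control at 44 h. Levels of Cyp6v1 at 24 h were 53.3, 48.5 and 52.5 CPM in E93RNAi+brRNAi, 48.3, 50.7 and 49.5 CPM in E93RNAi and 57.8, 56.8 and 56.8 CPM in control. Its log2 fold change was -1.45 ± 0.06 in E93RNAi+brRNAi, -1.10 ± 0.06 in E93RNAi and -1.36 ± 0.06 in control. Cyp9c1, one of the most abundant members per length, was between 38.8 and 67.6 CPM in all 18 libraries and changed by small amounts. It was higher at 44 h by 0.49 ± 0.06 in E93RNAi+brRNAi, 0.16 ± 0.06 in E93RNAi and 0.38 ± 0.06 in control, and the call in E93RNAi (adjusted p = 0.0156) was lost without E93RNAi 24 h replicate 1 (0.11).

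The CYP2 clan had 3 members, all low. Cyp305a1 was at 3.14, 4.10 and 3.29 CPM in E93RNAi+brRNAi, 2.44, 3.04 and 3.46 CPM in E93RNAi and 2.14, 2.19 and 3.05 CPM in control at 44 h, and its 24 h means were 0.385 ± 0.0587 CPM in E93RNAi+brRNAi, 0.640 ± 0.200 CPM in E93RNAi and 0.400 ± 0.117 CPM in control (SD, n = 3 each). It rose in each genotype, by 2.61 ± 0.29 on the log2 scale in control. Cyp303a1, which is required for the structure of sensory bristles in Drosophila, was at 1.29, 0.751 and 0.835 CPM in E93RNAi+brRNAi, 0.221, 0.421 and 0.231 CPM in E93RNAi and 0, 0.0996 and 0 CPM in control at 44 h. Cyp303a1 at 24 h was at 0.453, 0.142 and 0.223 CPM in E93RNAi+brRNAi, 0.457, 0.257 and 0.276 CPM in E93RNAi and 0.723, 0.302 and 0.375 CPM in control. Control thus had counts in 1 of 3 libraries at 44 h, and the E93RNAi+brRNAi libraries lay above those of both other genotypes. The log2 fold change at 44 h was 4.53 ± 0.76 for E93RNAi+brRNAi over control (adjusted p = 2.82e-05). With 49 counts in E93RNAi+brRNAi and 2 in control, the ratio was 26.8-fold, with an exact Clopper-Pearson counting interval of 7.03 to 227. Without control replicate 2, which held both counts, it was at least 11.5-fold higher in E93RNAi+brRNAi, taking 3 counts over the control group as the bound. Between the times Cyp303a1 rose in E93RNAi+brRNAi (1.75 ± 0.47, adjusted p = 0.0018) and fell in control (-3.49 ± 0.87, adjusted p = 0.000684). In control it had 2 counts at 44 h and 28 at 24 h, and without control 44 h replicate 2 it was at least 5.59-fold lower at 44 h, by the same bound.

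Between E93RNAi and control, P450 genes differed in both directions. At 44 h 16 members were higher and 17 lower in E93RNAi than in control, against 20.6% and 18.9% of all genes tested. At 24 h 11 were higher and 8 lower, against 21.7% and 22.3% of all genes, so the share of higher members was near the background. A limma test on log2(cRPKM + 0.1) gave 16 higher and 7 lower at 24 h. The median member was at -0.11 on the log2 scale at 44 h and 0.22 at 24 h, with the median of all genes within 0.01 of 0. By clan, CYP3 had 7 of 28 higher and 6 lower at 44 h and 6 higher and 3 lower at 24 h, and CYP4 had 6 of 22 higher and 9 lower at 44 h and 3 higher and 5 lower at 24 h. Muscle markers moved with genotype too, with sums of 440.8 to 551.4 CPM in E93RNAi and 803.2 to 934.5 CPM in control at 44 h, and 282.2 to 313.3 CPM in E93RNAi and 184.8 to 205.6 CPM in control at 24 h. Of 11 muscle markers, 10 were lower in E93RNAi at 44 h, and 8 were higher and 2 lower at 24 h. Of 10 tested fat body markers, 5 were higher and 4 lower at 44 h, and 6 higher and 1 lower at 24 h. Of 7 hemocyte markers, 0 were higher and 2 lower at 44 h, and 4 higher and 1 lower at 24 h. Of 6 neuron markers, 1 was higher and 0 lower at 44 h, and 2 higher and 4 lower at 24 h. Of 3 trachea markers, 2 were higher and 0 lower at 44 h, and 0 higher and 2 lower at 24 h. The part of these tissues in the P450 differences was not tested. These comparisons and those of E93RNAi+brRNAi below share libraries, so they are set side by side and not counted as separate evidence.

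Cyp4p2 and Cyp4p1 had the most negative log2 fold changes of E93RNAi over control among the tested members at both times. With Cyp4p3 they make up a run of CYP4 genes that stand next to each other on the plus strand of chromosome 2R (BDGP6, Ensembl annotation). Cyp4p2 spans 9237512 to 9239831, Cyp4p1 spans 9240041 to 9242139 and Cyp4p3 spans 9242320 to 9244410. Cyp4p2 was at 64.9, 78.7 and 63.6 CPM in E93RNAi+brRNAi, 0.443, 0.234 and 0.461 CPM in E93RNAi and 89.7, 95.2 and 106 CPM in control at 44 h. The 24 h libraries of Cyp4p2 had 71.7, 84.5 and 83.3 CPM in E93RNAi+brRNAi, 0.0457, 0.128 and 0.184 CPM in E93RNAi and 127, 133 and 125 CPM in control. It was thus among the most abundant members in control and in E93RNAi+brRNAi and near the limit of detection in all 6 E93RNAi libraries. The log2 fold change of E93RNAi over control was -8.01 ± 0.17 at 44 h (adjusted p = 1.59e-18) and -10.00 ± 0.19 at 24 h (adjusted p = 6.52e-19). That of E93RNAi+brRNAi over control was -0.49 ± 0.08 at 44 h (adjusted p = 4.71e-05) and -0.69 ± 0.08 at 24 h (adjusted p = 8.54e-07), and E93RNAi+brRNAi was above E93RNAi by 7.52 ± 0.18 at 44 h and 9.31 ± 0.20 at 24 h. The ± values of comparisons with E93RNAi are too small, since they derive from the test statistic and E93RNAi held few counts. For Cyp4p2 the difference of E93RNAi minus control, at 44 h minus 24 h, had an SE of 0.66.

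Cyp4p1 was at 21.9, 27.5 and 22.8 CPM in E93RNAi+brRNAi, 0.221, 0.234 and 0.461 CPM in E93RNAi and 38.2, 38.4 and 38.7 CPM in control at 44 h. Cyp4p1 at 24 h was at 36.3, 38.1 and 42.4 CPM in E93RNAi+brRNAi, 0.0457, 0.0428 and 0.184 CPM in E93RNAi and 54.2, 57.3 and 55.5 CPM in control. Its log2 fold change of E93RNAi over control was -6.97 ± 0.17 at 44 h and -9.18 ± 0.19 at 24 h, and that of E93RNAi+brRNAi over control was -0.68 ± 0.08 at 44 h and -0.52 ± 0.08 at 24 h. Here too the ± values of E93RNAi over control are too small. The difference of these fold changes, 44 h minus 24 h, had an SE of 0.64. Cyp4p3 was the least abundant of the run, at 1.11, 1.04 and 0.445 CPM in E93RNAi+brRNAi, 0.111, 0 and 0 CPM in E93RNAi and 1.15, 0.448 and 1.05 CPM in control at 44 h. At 24 h it had no count in the E93RNAi libraries and was at 1.61, 0.853 and 1.07 CPM in E93RNAi+brRNAi and 1.81, 2.02 and 2.02 CPM in control. At 24 h it was at least 43.5-fold lower in E93RNAi than in control, taking 3 counts over the E93RNAi group as the bound (adjusted p = 6.21e-07). At 44 h its log2 fold change was -4.41 ± 0.83 (adjusted p = 0.000161). It had 2 counts in E93RNAi and 49 in control, a 24.7-fold ratio with a counting interval of 6.48 to 210, and without E93RNAi replicate 1, which held both counts, it was at least 11.2-fold lower in E93RNAi by the same bound. The intervals cover counting error only, and reads shared between these paralogs may have been split between them.

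The Cyp4p run lies within the gene hig, which is on the opposite strand and spans 9227785 to 9247249. The hig transcript was also lower in E93RNAi, with a mean of 0.79 CPM in E93RNAi and 3.06 CPM in control at 44 h (adjusted p = 3.44e-05), and 0.548 CPM in E93RNAi and 5.47 CPM in control at 24 h (log2 fold change -3.29, adjusted p = 2.67e-08). In E93RNAi+brRNAi hig averaged 1.53 CPM at 44 h and 1.89 CPM at 24 h. Of the genes around the run at 24 h, VhaAC45 and Gnptab to the left had log2 fold changes of 0.09 and 0.18 for E93RNAi over control (adjusted p = 0.149 and 0.104), and Tsen15 and Pkn to the right had 0.10 and 0.11 (adjusted p = 0.854 and 0.112). Among the tested genes within 50000 bases, CG2063 was also lower at 24 h (-0.20, adjusted p = 0.0273) and Drep2 was higher (0.69, adjusted p = 0.00013). At 44 h Pkn and CG34141 were lower in E93RNAi than in control (both -0.48, adjusted p = 4.85e-07 and 0.0184), and Tsen15 and Drep2 were higher (1.22 and 0.78, adjusted p = 0.046 and 1.39e-05). Whether the counts of hig and of the Cyp4p genes are separate by strand could not be told from the sources used here.

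**Figure D3:**
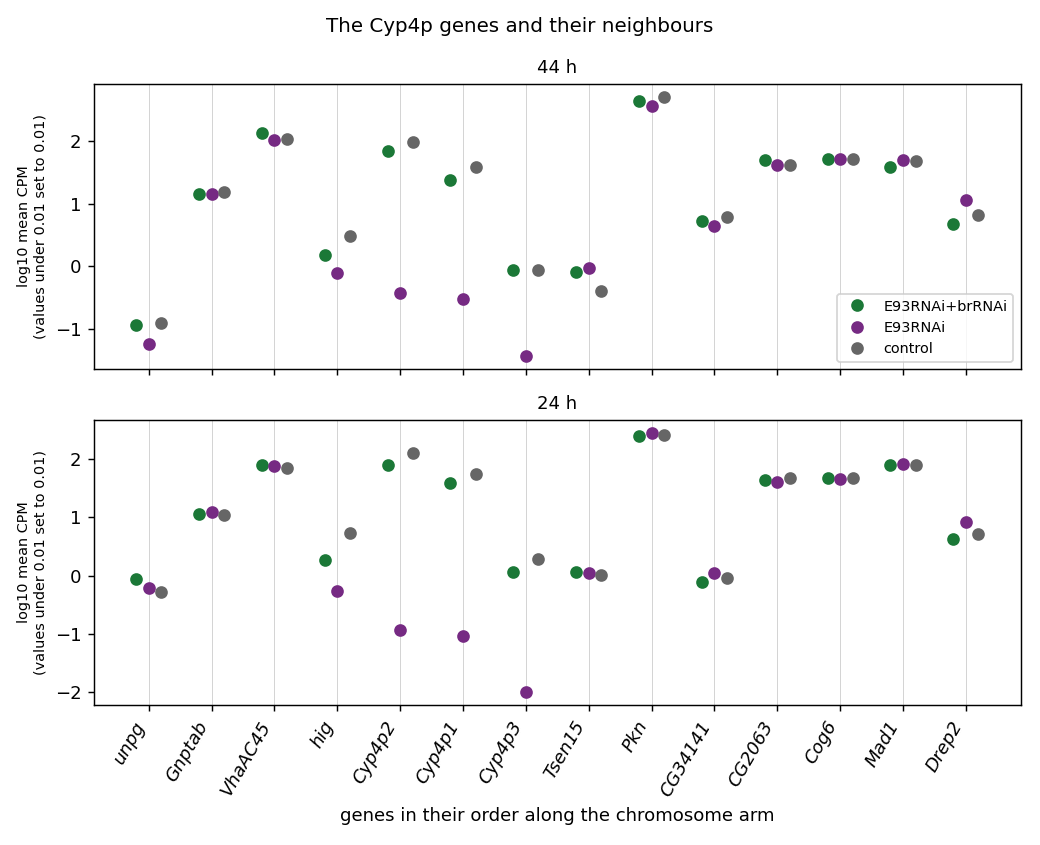
Mean CPM on a log10 scale (dots, n = 3 libraries, values under 0.01 set to 0.01) of the Cyp4p genes and the other tested genes within 50000 bases, in their order along the chromosome arm, at 44 h (top) and 24 h (bottom), with colours for E93RNAi+brRNAi, E93RNAi and control. The E93RNAi dots of Cyp4p2, Cyp4p1, Cyp4p3 and hig lie below those of the other genotypes at both times.

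**Figure D4:**
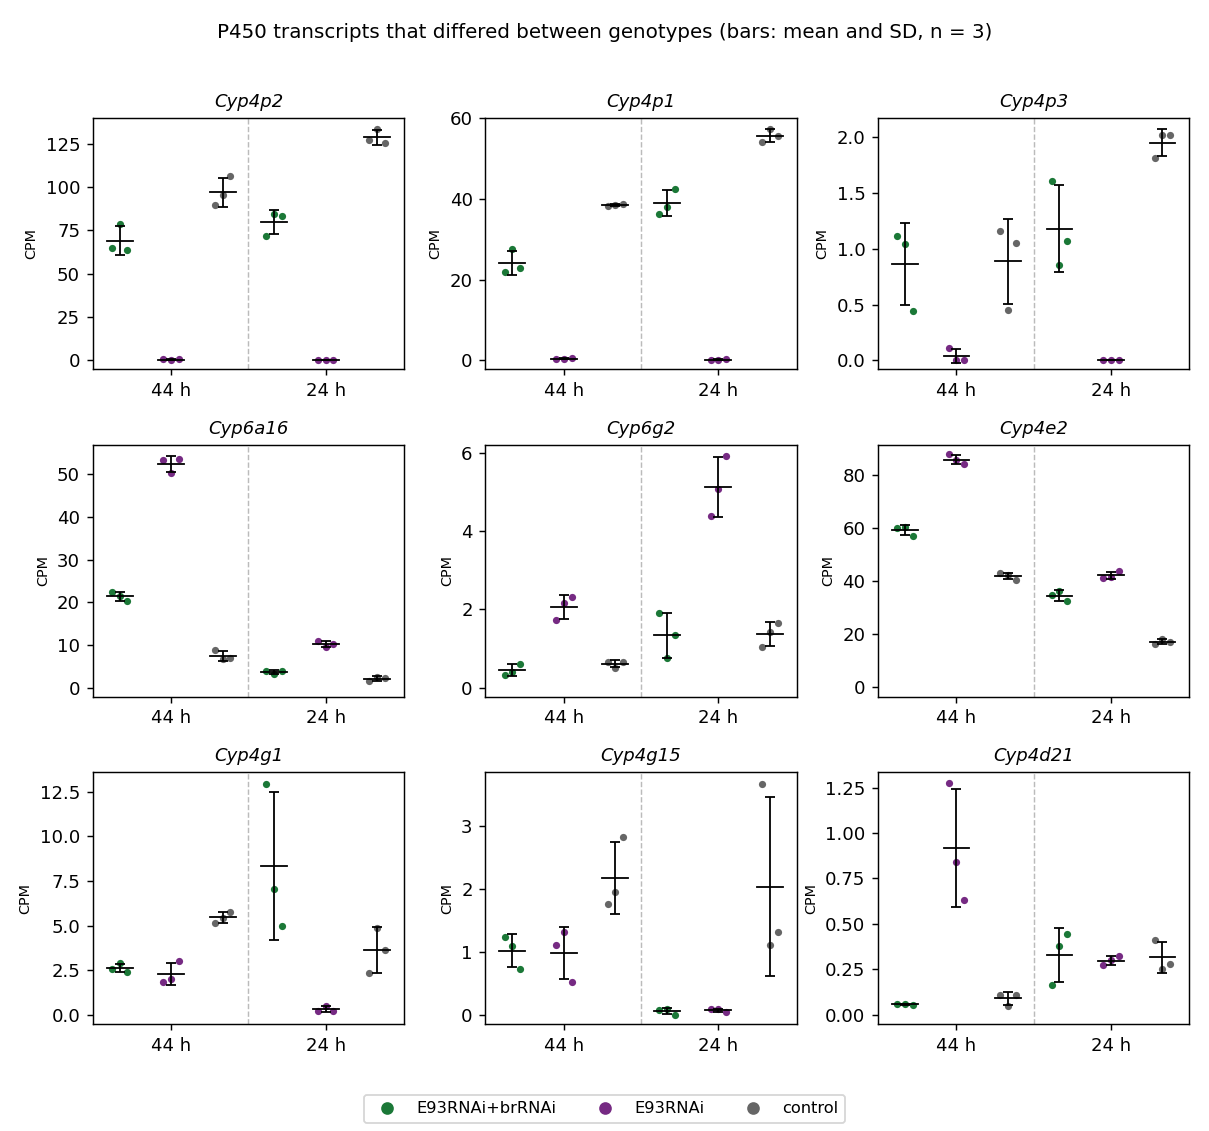
CPM of 9 P450 genes in each library (dots) with group mean and SD (black bars, n = 3), with 44 h on the left and 24 h on the right of each panel and colours for E93RNAi+brRNAi, E93RNAi and control. Cyp4p2, Cyp4p1 and Cyp4p3 sit at the bottom in E93RNAi, while Cyp6a16, Cyp6g2 and Cyp4e2 are highest there.

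Other CYP4 genes moved with genotype in either direction. Cyp4e2 was at 60.2, 60.7 and 57.3 CPM in E93RNAi+brRNAi, 87.9, 85.7 and 84.2 CPM in E93RNAi and 43.2, 42.2 and 40.7 CPM in control at 44 h. Levels of Cyp4e2 at 24 h were 35.0, 36.5 and 32.6 CPM in E93RNAi+brRNAi, 41.2, 41.8 and 43.8 CPM in E93RNAi and 16.4, 18.1 and 17.1 CPM in control. At both times E93RNAi was highest, E93RNAi+brRNAi lay between and control was lowest, with no overlap. E93RNAi exceeded control by 1.03 ± 0.05 at 44 h (adjusted p = 1.27e-12) and 1.29 ± 0.06 at 24 h, and E93RNAi+brRNAi exceeded it by 0.50 ± 0.05 at 44 h and 1.01 ± 0.06 at 24 h. Its neighbour Cyp4e1 was at 18.4, 17.2 and 20.3 CPM in E93RNAi+brRNAi, 19.5, 18.9 and 20.1 CPM in E93RNAi and 9.78, 8.77 and 7.70 CPM in control at 44 h. There both RNAi genotypes were above control, by 1.09 ± 0.10 in E93RNAi+brRNAi and 1.15 ± 0.10 in E93RNAi, and they did not pass against each other (-0.06 ± 0.09, interval -0.26 to 0.13). Cyp4d21, known as sxe1 from work on male courtship, was at 0.0617, 0.0578 and 0.0557 CPM in E93RNAi+brRNAi, 1.27, 0.843 and 0.634 CPM in E93RNAi and 0.110, 0.0498 and 0.111 CPM in control at 44 h. The E93RNAi libraries stood above the others by 3.28 ± 0.50 over control (adjusted p = 1.39e-05), and at 24 h the group means were 0.330, 0.298 and 0.316 CPM in E93RNAi+brRNAi, E93RNAi and control.

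Cyp4g1, which acts in the synthesis of cuticular hydrocarbons, and Cyp4g15, known from the nervous system, were lower in E93RNAi than in control at 24 h. Cyp4g1 was at 2.59, 2.89 and 2.39 CPM in E93RNAi+brRNAi, 1.83, 2.01 and 2.996 CPM in E93RNAi and 5.16, 5.43 and 5.76 CPM in control at 44 h. Cyp4g1 at 24 h was at 12.9, 7.06 and 4.96 CPM in E93RNAi+brRNAi, 0.229, 0.513 and 0.230 CPM in E93RNAi and 2.32, 4.89 and 3.61 CPM in control. E93RNAi was below control at 44 h (-1.27 ± 0.32, adjusted p = 0.00333) and at 24 h (-3.44 ± 0.48, adjusted p = 8.68e-06). The E93RNAi+brRNAi libraries at 24 h were spread over more than 2-fold and exceeded control by 1.21 ± 0.28 (adjusted p = 0.00201), or by 0.73 (adjusted p = 0.0272) without replicate 1. Cyp4g1 marks oenocytes, the cells beneath the body wall that make hydrocarbons. Of the other oenocyte markers, eloF had a count in 1 of the 18 libraries, FASN2 averaged at most 0.344 CPM and Fad2 at most 0.144 CPM in any group. The part of oenocyte RNA in the Cyp4g1 differences was not tested. Cyp4g1 overlaps CG32816 on the same strand, which averaged 123, 31.2 and 4.21 CPM in E93RNAi+brRNAi, E93RNAi and control at 44 h and 3.06, 2.11 and 2.25 CPM at 24 h. Cyp4g15 at 24 h was at 0.0824, 0.0948 and 0 CPM in E93RNAi+brRNAi, 0.0914, 0.0856 and 0.0459 CPM in E93RNAi and 3.67, 1.11 and 1.31 CPM in control. Both RNAi genotypes were below control at 24 h, with log2 fold changes of -4.95 ± 0.69 in E93RNAi+brRNAi (adjusted p = 7.3e-06) and -4.64 ± 0.66 in E93RNAi (adjusted p = 9.32e-06). The 6 matched neuron markers summed to between 121.6 and 140.4 CPM in E93RNAi+brRNAi, 137.4 and 165.8 CPM in E93RNAi and 143.1 and 144.5 CPM in control at 24 h. Of these markers, 2 were higher and 4 lower in E93RNAi than in control at 24 h, against 21.7% and 22.3% of all genes. In E93RNAi+brRNAi 1 was higher and 3 lower than in control, against 14.7% and 15.8% of all genes. The part of nerve RNA in the Cyp4g15 difference was not tested.

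In the CYP3 clan, Cyp6a16 had the largest excess of E93RNAi over control of any member above 5 CPM. At 44 h it was at 22.4, 21.5 and 20.4 CPM in E93RNAi+brRNAi, 53.4, 50.3 and 53.5 CPM in E93RNAi and 8.73, 6.78 and 6.87 CPM in control. The 24 h libraries of Cyp6a16 had 3.998, 3.08 and 3.89 CPM in E93RNAi+brRNAi, 10.9, 9.62 and 10.2 CPM in E93RNAi and 1.55, 2.47 and 2.35 CPM in control. E93RNAi exceeded control by 2.81 ± 0.10 at 44 h (adjusted p = 7.53e-15) and 2.26 ± 0.14 at 24 h (adjusted p = 1.23e-10). E93RNAi+brRNAi lay between, above control by 1.52 ± 0.11 at 44 h and 0.78 ± 0.17 at 24 h, and its log2 fold change over E93RNAi was -1.29 ± 0.09 at 44 h and -1.48 ± 0.12 at 24 h. Cyp6g2 was at 0.308, 0.404 and 0.613 CPM in E93RNAi+brRNAi, 1.72, 2.15 and 2.31 CPM in E93RNAi and 0.659, 0.498 and 0.665 CPM in control at 44 h. Cyp6g2 at 24 h was at 1.90, 0.758 and 1.34 CPM in E93RNAi+brRNAi, 4.39, 5.09 and 5.93 CPM in E93RNAi and 1.03, 1.41 and 1.64 CPM in control. E93RNAi stood above control at both times, by 1.76 ± 0.32 at 44 h and 1.90 ± 0.24 at 24 h, while E93RNAi+brRNAi did not pass against control (-0.43 ± 0.44 at 44 h, interval -1.36 to 0.49, and -0.02 ± 0.28 at 24 h, interval -0.61 to 0.57). Its neighbour Cyp6g1, known from resistance to DDT, overlaps Cyp6g2 by 94 bases and averaged 1.62 CPM in E93RNAi and 0.888 CPM in control at 24 h.

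Other CYP3 genes were lower in E93RNAi. Cyp6t1 was at 2.77, 2.54 and 2.34 CPM in E93RNAi+brRNAi, 1.38, 2.62 and 2.07 CPM in E93RNAi and 4.12, 3.84 and 4.71 CPM in control at 44 h. Levels of Cyp6t1 at 24 h were 4.53, 3.55 and 5.23 CPM in E93RNAi+brRNAi, 1.42, 1.24 and 0.965 CPM in E93RNAi and 4.34, 3.02 and 3.80 CPM in control, a log2 fold change of -1.62 ± 0.23 for E93RNAi over control (adjusted p = 1.08e-05). Cyp6d5 averaged 0.720 ± 0.407 CPM in E93RNAi and 2.21 ± 0.232 CPM in control at 44 h (-1.58 ± 0.33, adjusted p = 0.000486), and Cyp28a5 averaged 0.668 ± 0.320 and 1.84 ± 0.443 CPM in the same groups (-1.48 ± 0.33, adjusted p = 0.000912; SD, n = 3 each). Cyp6d5 overlaps rdx on the opposite strand, which averaged 183 CPM in E93RNAi and 163 CPM in control at 44 h. Cyp6a2 was lower in E93RNAi than in control at 44 h as well (-1.003 ± 0.23, adjusted p = 0.00124). The CYP4 gene Cyp4ac3 was at 0.740, 0.924 and 0.557 CPM in E93RNAi+brRNAi, 0.221, 0.234 and 0.576 CPM in E93RNAi and 0.879, 1.40 and 1.66 CPM in control at 44 h (-1.95 ± 0.39 for E93RNAi over control, adjusted p = 0.000325). In these genes E93RNAi lay below control without overlap. Cyp4ac3 and its neighbour Cyp4ac1 overlap tkv on the opposite strand. The tkv transcript averaged 820, 877 and 919 CPM in E93RNAi+brRNAi, E93RNAi and control at 44 h, and 780, 635 and 609 CPM at 24 h.

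In wings with both RNAi transgenes more P450 genes were higher than lower, most clearly at 44 h. At 44 h 20 members were higher and 10 lower in E93RNAi+brRNAi than in control, against 23% and 22.6% of all genes tested. Without E93RNAi+brRNAi 44 h replicate 3 they were 18 higher and 5 lower. At 24 h 11 were higher and 5 lower, against 14.7% and 15.8% of all genes. Set against E93RNAi, E93RNAi+brRNAi had 25 members higher and 10 lower at 44 h (24.9% and 23.9% of all genes) and 10 higher and 8 lower at 24 h (20.2% and 21.1% of all genes). At 24 h that was 17.2% of tested members higher and 13.8% lower, both below the shares of all genes. The median member at 44 h was 0.13 above control and 0.42 above E93RNAi on the log2 scale, with the median of all genes at -0.01 in both comparisons. Muscle markers moved with these genotypes as well. They summed to between 721 and 887.7 CPM in E93RNAi+brRNAi at 44 h, against 440.8 to 551.4 CPM in E93RNAi and 803.2 to 934.5 CPM in control, and at 24 h to between 149.9 and 178.4 CPM in E93RNAi+brRNAi, against 282.2 to 313.3 CPM in E93RNAi and 184.8 to 205.6 CPM in control. Of 11 markers, all 11 were higher in E93RNAi+brRNAi than in E93RNAi at 44 h and 9 were lower at 24 h, while against control 5 were higher and 1 lower at 44 h and 2 higher and 3 lower at 24 h. Against control, 5 of 10 tested fat body markers were higher and 3 lower at each time. Of 7 hemocyte markers, 1 was higher and 2 lower at 44 h, and 5 and 0 at 24 h. Of 6 neuron markers, 0 were higher and 2 lower at 44 h, and 1 and 3 at 24 h. Against E93RNAi, fat body had 2 higher and 1 lower at 44 h, and 1 and 7 at 24 h. Hemocytes had 3 and 0 at 44 h, and 1 and 2 at 24 h. Neurons had 0 and 3 at 44 h, and 0 and 1 at 24 h. The 3 matched trachea markers summed to 264.8 to 330.5 CPM in E93RNAi+brRNAi, 216.2 to 237.3 CPM in E93RNAi and 179.7 to 187.7 CPM in control at 44 h. Against control, 2 trachea markers were higher and 0 lower in E93RNAi+brRNAi at 44 h, and 0 and 1 at 24 h. Against E93RNAi they had 2 and 1 at 44 h, and 0 and 0 at 24 h. The part of these tissues in the P450 differences was not tested. Cyp6u1 was at 39.9, 42.6 and 48.2 CPM in E93RNAi+brRNAi, 22.8, 20.9 and 24.5 CPM in E93RNAi and 13.7, 13.1 and 15.2 CPM in control at 44 h. Cyp6u1 at 24 h was at 18.8, 17.0 and 17.3 CPM in E93RNAi+brRNAi, 19.2, 18.1 and 18.3 CPM in E93RNAi and 19.1, 20.5 and 20.7 CPM in control. The genotypes lay close together at 24 h and apart at 44 h. At 44 h E93RNAi+brRNAi was above control by 1.64 ± 0.08 (adjusted p = 6.41e-13) and E93RNAi was above control by 0.70 ± 0.09 (adjusted p = 8.58e-07). Cyp6u1 overlaps Ufsp1 on the same strand, where reads could not be told apart by strand. Ufsp1 averaged 3.66, 1.43 and 1.22 CPM in E93RNAi+brRNAi, E93RNAi and control at 44 h, and 2.3, 2.54 and 2.35 CPM at 24 h. At 44 h Ufsp1 was above control by 1.59 in E93RNAi+brRNAi (adjusted p = 2.18e-06).

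Cyp6d2 was at 3.21, 4.39 and 5.12 CPM in E93RNAi+brRNAi, 1.11, 0.749 and 0.749 CPM in E93RNAi and 1.04, 1.15 and 1.11 CPM in control at 44 h. The 24 h libraries of Cyp6d2 had 1.81, 0.995 and 1.12 CPM in E93RNAi+brRNAi, 2.83, 2.22 and 2.02 CPM in E93RNAi and 1.34, 1.06 and 0.938 CPM in control. It was higher in E93RNAi+brRNAi than in the other genotypes at 44 h (1.95 ± 0.25 over control, adjusted p = 1.67e-06, and 2.29 ± 0.26 over E93RNAi), whereas at 24 h it was highest in E93RNAi (1.08 ± 0.26 over control, adjusted p = 0.002). Cyp28d1, known from studies of nicotine resistance, was at 5.86, 7.16 and 5.40 CPM in E93RNAi+brRNAi, 1.99, 2.06 and 1.84 CPM in E93RNAi and 2.97, 2.79 and 4.27 CPM in control at 44 h. E93RNAi+brRNAi exceeded control by 0.88 ± 0.19 there (adjusted p = 0.000662), and it exceeded E93RNAi by 1.64 ± 0.20. Its neighbour Cyp28d2 averaged 3.67 ± 0.603 CPM in E93RNAi+brRNAi and 1.70 ± 0.170 CPM in control (1.11 ± 0.19, adjusted p = 6.18e-05; SD, n = 3 each). At 24 h Cyp4ac1 was above control in E93RNAi+brRNAi, with 1.56 ± 0.267 CPM in E93RNAi+brRNAi and 0.516 ± 0.123 CPM in control (1.59 ± 0.28, adjusted p = 0.000163; SD, n = 3 each).

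Whether a genotype difference itself changed with time was tested as an interaction. The word effect here names a difference between labelled groups, and its cause was not tested. The E93RNAi effect (E93RNAi minus control) was more positive at 44 h than at 24 h for 14 members and more negative for 10, against 19.9% and 18% of all genes tested. The effect of added br RNAi (E93RNAi+brRNAi minus E93RNAi) was more positive at 44 h for 12 members and more negative for 10, against 17.5% and 16% of all genes. Cyp4s3 and Cyp12a4 had E93RNAi effects below 0 at 44 h and above 0 at 24 h, differing by -3.33 ± 0.25 (adjusted p = 2.21e-09) and -3.65 ± 0.38 (adjusted p = 1.89e-07). The effect on Cyp310a1 was above 0 at 44 h and higher than at 24 h by 1.91 ± 0.26 (adjusted p = 7.39e-06). The added br RNAi effect on Cyp301a1 and Cyp49a1 was larger at 44 h by 1.27 ± 0.16 (adjusted p = 3.77e-06) and 1.51 ± 0.23 (adjusted p = 2.79e-05). For Cyp9b2 neither difference passed (0.02 ± 0.30, interval -0.61 to 0.66, and 0.14 ± 0.23, interval -0.35 to 0.62).

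**Figure D5:**
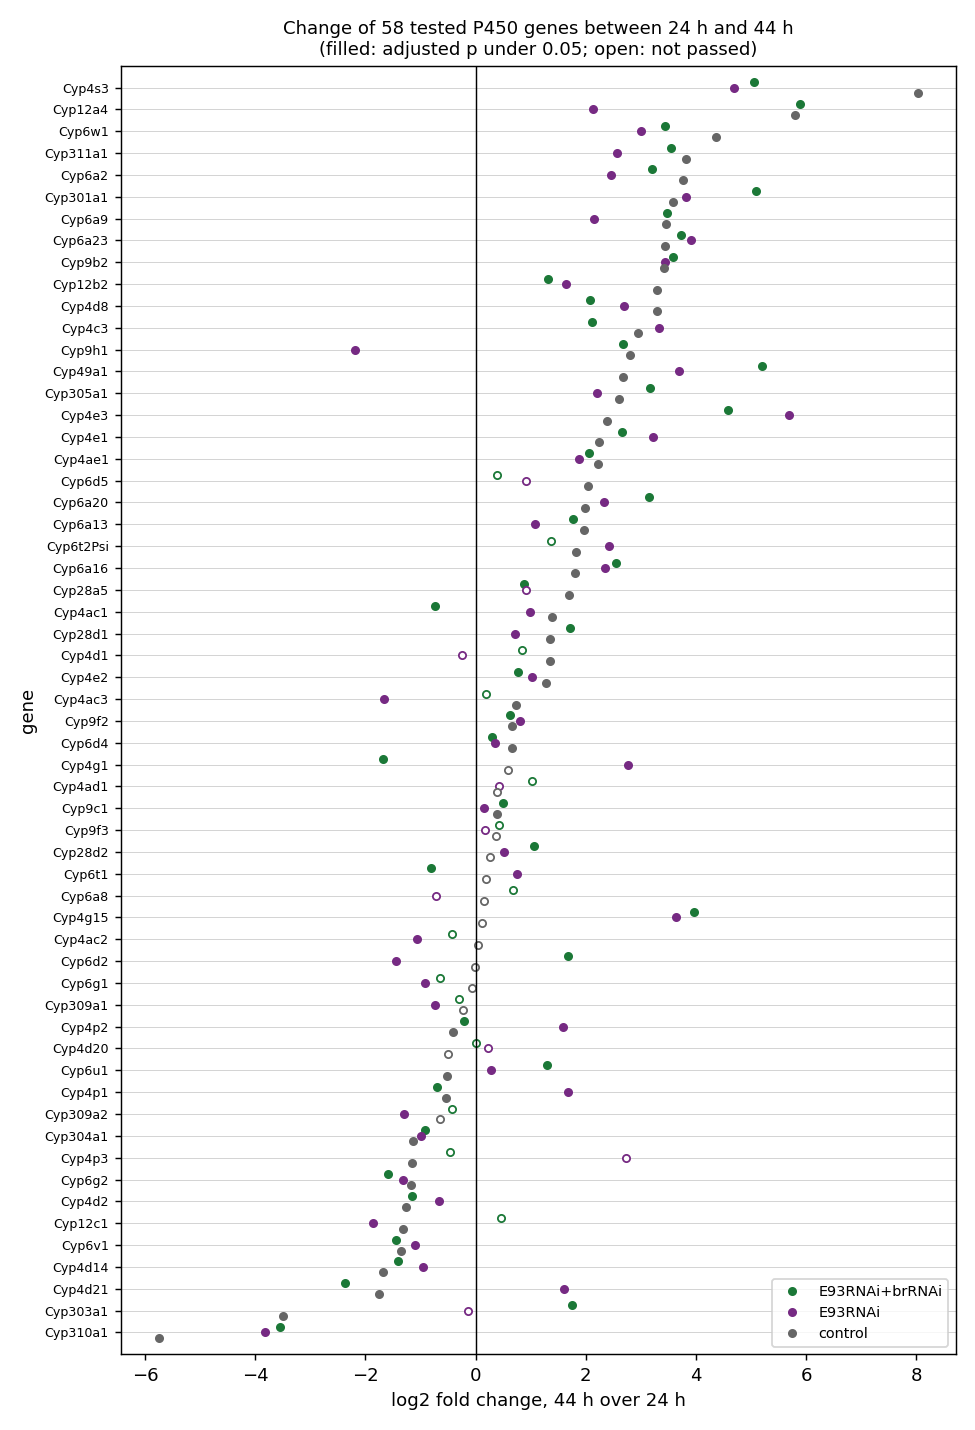
Log2 fold change of 44 h over 24 h for the 58 tested P450 genes (lines, sorted by the control value), with a dot for each of E93RNAi+brRNAi, E93RNAi and control, filled where the adjusted p was under 0.05. The control values run from -5.74 for Cyp310a1 to 8.02 for Cyp4s3, and in Cyp301a1 and Cyp49a1 the E93RNAi+brRNAi dot lies to the right of the others.

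Genes that work with the P450s were read from lists of named genes and gene families. Cpr, the electron donor of the microsomal enzymes, averaged 168 ± 5.87 CPM in E93RNAi+brRNAi, 171 ± 5.40 CPM in E93RNAi and 167 ± 5.06 CPM in control at 44 h, and 188 ± 7.27, 183 ± 8.22 and 171 ± 0.389 CPM at 24 h (SD, n = 3 each). It stayed within 162.2 and 192.6 CPM in all 18 libraries, while the P450 sum was higher at 44 h in each genotype. Cyt-b5, which passes electrons to some P450s, was at 262, 282 and 315.9 CPM in E93RNAi+brRNAi, 205, 207 and 217 CPM in E93RNAi and 222, 231 and 238 CPM in control at 44 h. Cyt-b5 at 24 h was at 109, 115 and 118 CPM in E93RNAi+brRNAi, 85.8, 96.4 and 72.7 CPM in E93RNAi and 94.7, 92.7 and 91.2 CPM in control. It rose by 1.33 ± 0.08 in E93RNAi+brRNAi, 1.30 ± 0.08 in E93RNAi and 1.31 ± 0.08 in control on the log2 scale. Of the 5 tested redox partners, 3 were higher at 44 h in each genotype, against 37.8%, 38.1% and 37.1% of all genes in E93RNAi+brRNAi, E93RNAi and control. Cpr was lower at 44 h in E93RNAi+brRNAi (-0.16 ± 0.05, adjusted p = 0.00401), and 0 partners were lower in E93RNAi or control.

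Glutathione transferases conjugate reactive compounds. Of 29 tested, 4 were higher and 13 lower in E93RNAi than in control at 44 h (median log2 fold change -0.19), against 20.6% and 18.9% of all genes. At 24 h 5 were higher and 13 lower (median -0.24), against 21.7% and 22.3% of all genes. In E93RNAi+brRNAi 11 were higher and 4 lower than in control at 44 h (median 0.10), against 23% and 22.6% of all genes, and 8 were higher and 4 lower at 24 h (median 0.10), against 14.7% and 15.8% of all genes. The median of all genes was within 0.01 of 0 in these comparisons. GstT4 averaged 67.1 ± 5.87 CPM in E93RNAi+brRNAi, 24.4 ± 1.89 CPM in E93RNAi and 76.7 ± 5.65 CPM in control at 44 h (SD, n = 3 each), a log2 fold change of -1.65 ± 0.07 for E93RNAi over control (adjusted p = 1.24e-13). GstE6 averaged 53.7 ± 5.36, 18.4 ± 1.02 and 12.5 ± 1.56 CPM in the same groups (2.10 ± 0.10 for E93RNAi+brRNAi over control, adjusted p = 2.01e-13). UDP-glycosyltransferases, which attach sugars to such compounds, had 15 tested members. Against control, 6 were higher and 2 lower in E93RNAi+brRNAi at 44 h and 3 higher and 0 lower at 24 h, and 5 were higher and 3 lower in E93RNAi at 44 h and 6 higher and 0 lower at 24 h. Of the 8 regulators of xenobiotic responses, 4 were higher and 0 lower in E93RNAi+brRNAi at 44 h and 1 higher and 0 lower at 24 h, and 2 were higher and 1 lower in E93RNAi at 44 h and 4 higher and 1 lower at 24 h. Both lists are short, and nothing is read from their counts beside these shares of all genes.

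The ecdysteroid enzymes carry other names or were left out by the rule, and 5 of their list of 9 were tested, Cyp18a1 included. Against control, E93RNAi+brRNAi had 2 of the 5 higher and 1 lower at 44 h and 1 higher and 4 lower at 24 h, and E93RNAi had 1 higher and 3 lower at 44 h and 1 higher and 2 lower at 24 h. Of all genes, 23% were higher and 22.6% lower in E93RNAi+brRNAi at 44 h and 14.7% and 15.8% at 24 h, and 20.6% were higher and 18.9% lower in E93RNAi at 44 h and 21.7% and 22.3% at 24 h. With 5 genes, nothing more is read from the counts. The gene shd, which makes the active hormone from ecdysone, was at 15.3, 16.6 and 12.8 CPM in E93RNAi+brRNAi, 18.3, 17.98 and 16.3 CPM in E93RNAi and 26.1, 23.5 and 23.3 CPM in control at 44 h. Levels of shd at 24 h were 14.6, 16.1 and 14.5 CPM in E93RNAi+brRNAi, 9.19, 10.2 and 8.41 CPM in E93RNAi and 9.04, 7.16 and 8.63 CPM in control. It rose between the times in E93RNAi (0.92 ± 0.10) and control (1.55 ± 0.10), and in E93RNAi+brRNAi the difference did not pass (-0.02 ± 0.10, adjusted p = 0.858). Of 7 tested partners of Cyp4g1 in hydrocarbon synthesis, 4 were higher and 1 lower in E93RNAi+brRNAi than in control at 44 h, and 1 was higher and 1 lower in E93RNAi. At 24 h 0 were higher and 1 lower than in control in E93RNAi+brRNAi, and 1 was higher and 3 lower in E93RNAi. These counts stand beside the same shares of all genes at each time.

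Of the 58 tested members, 2 passed in none of the 9 comparisons of times and genotypes, Cyp9f3 and Cyp4ad1. Of all genes, 75.8%, 74.5% and 75.3% passed between the times alone in E93RNAi+brRNAi, E93RNAi and control. The share of all genes that passed in none of the 9 was not taken, so nothing is read from this count. Cyp9f3 averaged 2.75, 2.01 and 2.41 CPM in E93RNAi+brRNAi, E93RNAi and control at 44 h and 2.03, 1.78 and 1.85 CPM at 24 h. Among the low members, Cyp309a2 averaged 1.19, 0.639 and 1.13 CPM in E93RNAi+brRNAi, E93RNAi and control at 44 h, Cyp4ac2 averaged 0.625, 0.640 and 1.17 CPM, and Cyp4d20 averaged 0.550, 1.05 and 0.534 CPM. The 5 members left out of the main test for want of counts were Cyp6a22, Cyp4aa1, Cyp312a1, Cyp313b1 and Cyp12a5. They averaged at most 0.563 CPM in any group, and their differences are not judged here. In all, 28 members overlap another protein-coding gene in the annotation, 25 of them one on the opposite strand, and 24 members stand in 9 runs of neighbours with gaps under 3000 bases.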

How the data were processed

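RNA of 18 pupal wing samples was sequenced after poly(A) selection with a strand-keeping kit, per the labels' protocols. The authors deposited, for each gene and sample, an unnormalised read count and an RPKM value (named cRPKM), which is scaled to gene length and library depth. The genome build was dm6 per the submitters' processing notes, and neither aligner, counter nor strand setting is named there (each not given in the sources used here). Of 14489 listed genes, 13731 had values, and 13511 of these matched a symbol in the Ensembl annotation. Genes that passed edgeR's filter on low counts (9672) were fitted as a whole (R 4.3.3, edgeR 4.0.16, TMM scaling, quasi-likelihood test over all 6 groups), and adjusted p-values are Benjamini-Hochberg values over all of them. A gene is called higher or lower at an adjusted p under 0.05. Values after ± are SE for log2 fold changes and SD for CPM, intervals cover 95%, and floors and bounds cover counting error only. The SE of a log2 fold change is its size over the root of the F statistic, and its interval rests on that SE. Both are too narrow for large changes from few counts, such as Cyp4s3 in control between the times. The test was tested on simulated data. Alternatives were DESeq2 1.42.0, limma 3.58.1 on log2(deposited cRPKM + 0.1), other scalings and filters, fits of only the groups compared, the replicate number as a block, and each library left out. Samples with the same replicate number showed no strong shared deviation (correlations of -0.18 to 0.09). The labels state no pairing, and with 3 libraries in a group these correlations cannot exclude one. Libraries of a group differed beyond sampling noise (chi-square per degree of freedom of 2.77 to 25.47). Replicate 3 stood apart from replicates 1 and 2 in E93RNAi at 24 h (17.57 and 25.47, against 3.97 between those 2). It also did in E93RNAi+brRNAi at 44 h (22.76 and 24.45, against 5.42).

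Every member could be named. Values were given for up to 6 higher and 6 lower members per comparison by size of change at 1 CPM or more, the 6 highest per length, and others by role. Members and gene lists were chosen with earlier results of these data known. Sequences were not used here.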

Additional observations from a re-analysis of the deposited data

Results flagged for a closer look

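In 30 cases the genotype difference of a member itself differed between 44 h and 24 h by the interaction test and changed by at least 1 on the log2 scale. For E93RNAi minus control these were 16 of 58 tested members (27.6%), against 10.5% of all genes. For E93RNAi+brRNAi minus E93RNAi they were 14 of 58 (24.1%), against 8.18% of all genes. Values are the difference at 44 h minus that at 24 h, so a positive one means a more positive difference at 44 h. For E93RNAi minus control, it was 3.53 in Cyp4g15, 3.36 in Cyp303a1, 3.35 in Cyp4d21, 2.21 in Cyp4p1, 2.17 in Cyp4g1, 1.99 in Cyp4p2, 1.91 in Cyp310a1 and 1.02 in Cyp49a1. It was negative in Cyp9h1 (-4.98), Cyp12a4 (-3.65), Cyp4s3 (-3.33), Cyp4ac3 (-2.38), Cyp12b2 (-1.65), Cyp4d1 (-1.59), Cyp6d2 (-1.43) and Cyp311a1 (-1.25).

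For E93RNAi+brRNAi minus E93RNAi, it was 4.86 in Cyp9h1, 3.75 in Cyp12a4, 3.12 in Cyp6d2, 2.32 in Cyp12c1, 1.85 in Cyp4ac3, 1.51 in Cyp49a1, 1.27 in Cyp301a1 and 1.01 in Cyp6u1. It was negative in Cyp4g1 (-4.43), Cyp4d21 (-3.96), Cyp4p1 (-2.37), Cyp4p2 (-1.79), Cyp4ac1 (-1.71) and Cyp6t1 (-1.56). The E93RNAi libraries enter both differences, so a gene named in both has not been seen in separate samples. Some of these rest on single libraries. Cyp9h1 had no count in the E93RNAi libraries at 44 h without replicate 1, so no value is given without it. Likewise Cyp303a1 had no count in control at 44 h without replicate 2, and it missed the threshold without E93RNAi 44 h replicate 2 (2.96). The call was also lost for Cyp4p1 without E93RNAi 44 h replicate 3 (1.81), and for Cyp4p2 without E93RNAi 24 h replicate 1 (1.63 for E93RNAi minus control and -1.43 for E93RNAi+brRNAi minus E93RNAi) or any of several other libraries. Cyp4d1 lost it without any of 8 libraries (-1.70 to -1.25) and Cyp12c1 without any of 7 (1.68 to 2.35).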

How the results depend on the processing

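Of 335 called results of single members, all 335 kept their direction under the alternatives run, 259 kept the call in all of them, and 68 lost it without 1 library. Total numbers of called members (higher plus lower) stayed within 1.5 times of those reported in all comparisons and alternatives. The lower members of E93RNAi+brRNAi against control did not, with 3 against 5 at 24 h with limma and 5 against 10 at 44 h without E93RNAi+brRNAi 44 h replicate 3. Leaving out each library gave 28 to 32 members for E93RNAi against control at 44 h (33 with all) and 17 to 19 at 24 h (19), 23 to 28 for E93RNAi+brRNAi against control at 44 h (30) and 15 to 17 at 24 h (16), and 30 to 34 for E93RNAi+brRNAi against E93RNAi at 44 h (35) and 14 to 18 at 24 h (18). For the times it gave 42 to 45 in E93RNAi+brRNAi, 44 to 49 in E93RNAi and 42 to 44 in control, and for the interactions 20 to 25 and 18 to 22. The replicate number as a block gave 32 and 19 members for E93RNAi against control at 44 h and 24 h, 29 and 15 for E93RNAi+brRNAi against control, 35 and 16 for E93RNAi+brRNAi against E93RNAi, 44, 49 and 44 for the times in E93RNAi+brRNAi, E93RNAi and control, and 24 and 23 for the interactions. By the labels the samples share only a number, so the block is not known to be a pairing. With limma on cRPKM, 69.6% of the calls for E93RNAi against control at 24 h were higher (57.9% with edgeR), and the median of all genes lay at up to -0.26 (E93RNAi+brRNAi between the times), so changes there are relative to it. Members under about 1 CPM rest on few counts, and their differences are the least certain.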
